A study of Homo sapiens with 6 samples.

Results

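The receptor tyrosine kinase genes outside the colony-stimulating factor (CSF) receptor group were compared between THP-1 cells from the German collection DSMZ and THP-1 cells from the American Type Culture Collection (ATCC). The 9 genes, PDGFRA, PDGFRB, FGFR1, IGF1R, INSR, AXL, MERTK, TYRO3 and FLT1, were taken by name from the 34918 genes listed. All 9 were among the 14572 genes with enough counts to be tested. The line THP-1 was established from acute monocytic leukaemia and grows in suspension. Each bank is represented by 3 libraries of poly(A) RNA, and the cells of both banks were untreated, with no engineered change named in the labels, grown side by side in RPMI medium with serum and collected while dividing. Replicate expansions of a bank were independent per the labels, so p-values rest on the spread between cultures, and each bank is 1 stock of the line. In bulk RNA, fewer cells of a type and less RNA per cell cannot be told apart.

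Receptor tyrosine kinases span the cell membrane, bind a ligand outside and phosphorylate tyrosines on themselves and on docking proteins inside. IGF1R and INSR are preformed dimers that bind insulin-like growth factors and insulin and signal through the IRS adaptors. FGFR1 binds fibroblast growth factors with heparan sulfate. AXL, MERTK and TYRO3 form the TAM family, which binds the vitamin K-dependent proteins GAS6 and protein S and serves the clearance of dying cells by phagocytes. PDGFRA and PDGFRB are best known from mesenchymal cells, and FLT1 (VEGF receptor 1) is a high-affinity VEGF receptor also made as a soluble decoy.

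Levels are given as CPM (estimated counts scaled to library size) and, where genes are set beside each other, as TPM (which also allows for transcript length). Fold changes are DSMZ minus ATCC on the log2 scale, tested by quasi-likelihood in edgeR, and p-values were adjusted by Benjamini-Hochberg over all tested genes. Library totals ran from 23413428 to 37119721 estimated counts. ATCC replicate 2 stood apart: the chi-square per degree of freedom was 60.7 and 102 against the other ATCC libraries, and 12.7 between those.

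The banks differed in the levels of most of these receptor genes. IGF1R mRNA was abundant in DSMZ and scarce in ATCC, while FGFR1 mRNA was lower in DSMZ than in ATCC. INSR was high in both and moderately higher in DSMZ, as were the scarcer MERTK, FLT1 and PDGFRB. TYRO3 was slightly higher in ATCC, PDGFRA was a trace transcript seen mainly in ATCC, and AXL did not pass the test. In all, 8 of the 9 genes passed an adjusted p of 0.05, 5 higher and 3 lower in DSMZ, where 49.8% of all tested genes passed (24.1% higher and 25.7% lower). Of these, 6 passed with at least a 2-fold difference (21.3% of all tested genes), PDGFRB only just. The libraries of the 2 banks did not overlap in 8 of the 9 (62.4% of all tested genes).

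**Figure D1:**
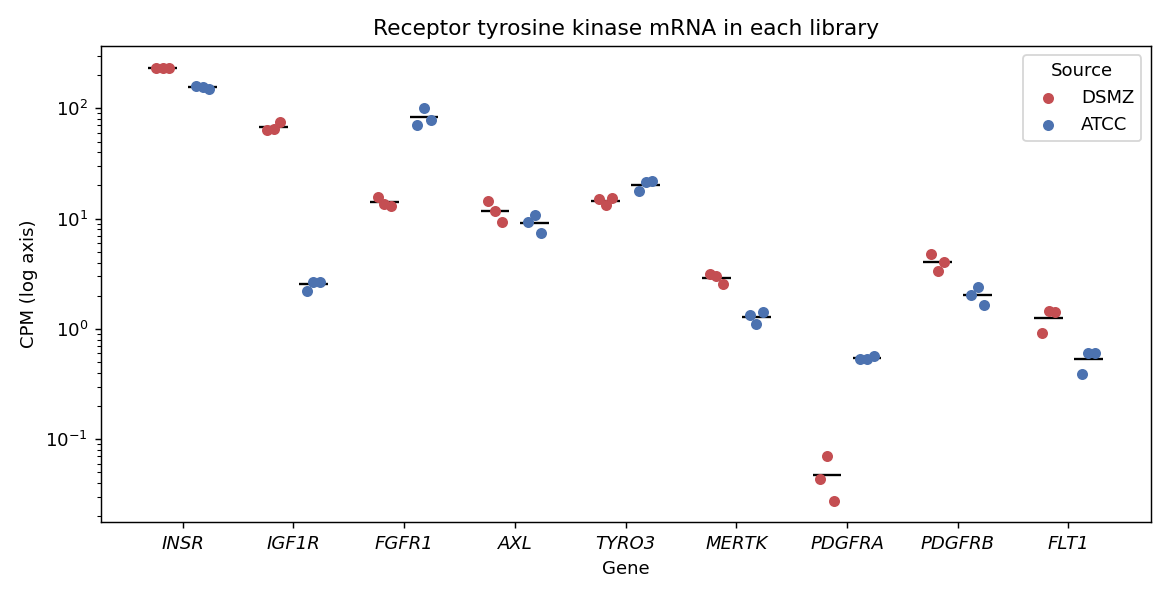
CPM of each receptor gene (log axis) in the 3 DSMZ libraries (left of each pair) and the 3 ATCC libraries (right), each point 1 library and each bar the mean. IGF1R stands at 63.3 to 74.6 CPM in DSMZ and 2.22 to 2.69 in ATCC, FGFR1 at 13.1 to 15.6 in DSMZ and 70.7 to 100.3 in ATCC, and only the AXL points of the banks overlap.

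Among the insulin and IGF receptors, IGF1R (chromosome 15, 98648539 to 98964530, plus strand, GRCh38) had the largest difference of the 9. It had 63.3, 64.7 and 74.6 CPM in the DSMZ libraries and 2.22, 2.69 and 2.68 CPM in the ATCC libraries. The DSMZ libraries lay far above the ATCC libraries, with little spread within either bank. The log2 fold change was 4.74 (SE 0.14, adjusted p = 2.11e-06), a 26.7-fold difference, and 0.995% of all tested genes had a larger absolute change. The counts behind it were 1459 to 2683 per library in DSMZ and 63 to 75 in ATCC. INSR (chromosome 19, 7112255 to 7294034, minus strand), the insulin receptor, had 234, 233 and 232 CPM in DSMZ and 159, 157 and 149 CPM in ATCC. The banks did not overlap and the spread within each was small. Its log2 fold change was 0.59 (SE 0.08, adjusted p = 6.9e-04).

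The ratio of the paired receptors therefore differed. Counting only full-length coding transcripts (coding sequence at least 85% of the gene's longest), IGF1R was at 6.17 ± 0.38 TPM in DSMZ and 0.227 ± 0.019 TPM in ATCC, and INSR at 33.4 ± 0.474 TPM in DSMZ and 22.3 ± 0.904 TPM in ATCC (SD, n = 3 each). The log2 ratio of IGF1R to INSR over all transcripts was -1.15 ± 0.331 in DSMZ and -5.23 ± 0.906 in ATCC (SD, n = 3 each; exact two-sided permutation p = 0.1, the smallest that 3 against 3 libraries allow). Over full-length transcripts that ratio was -2.44 ± 0.092 in DSMZ and -6.62 ± 0.150 in ATCC (SD, n = 3 each; exact permutation p = 0.1). INSR thus stayed the more abundant of the pair in every library.

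INSR makes 2 full-length receptors that differ by the inclusion of exon 11, which encodes a short insert at the end of the alpha subunit: the form without it (isoform A) binds IGF2 as well as insulin, and the form with it (isoform B) is the main form of liver. The exon is printed because its 36 bases are the difference in coding length between the transcripts INSR-201 and INSR-202 (chr19:7150497-7150532, minus strand, GRCh38, from GENCODE transcripts).
INSR exon 11: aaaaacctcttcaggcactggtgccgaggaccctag
The transcript with this exon held 20.3, 22.8 and 26.9% of the full-length INSR TPM in DSMZ and 20.4, 21.9 and 22.3% in ATCC. The means were 23.4 ± 3.35% in DSMZ and 21.5 ± 1.00% in ATCC (SD, n = 3 each), and the banks overlapped (exact two-sided permutation p = 0.5). Most INSR mRNA was assigned to the form without the exon in every library, and the extra INSR of DSMZ was in both forms: the form without it was at 25.6 ± 1.15 TPM in DSMZ and 17.5 ± 0.94 TPM in ATCC, the form with it at 7.80 ± 1.12 TPM in DSMZ and 4.80 ± 0.04 TPM in ATCC. kallisto divides reads between these transcripts by estimation, and their untranslated ends also differ.

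IGF1R and INSR also share matches to the let-7 microRNA seed, and both are known let-7 targets. The mature let-7a (RefSeq, GRCh38.p14, chr9:94175962-94175983, plus strand) is printed with its seed, bases 2 to 8, in capitals. Below it are the stretches of the longest annotated 3' UTR of each gene that hold CTACCTC, the complement of that seed, in capitals and on the transcript's strand.
hsa-let-7a-5p: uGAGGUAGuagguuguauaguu
IGF1R match 1, chr15:98960046-98960068, plus strand: cccccaaacatttatCTACCTCa
IGF1R match 2, chr15:98964088-98964110, plus strand: tttgccagagtttgtCTACCTCt
INSR match 1, chr19:7114656-7114678, minus strand: ttttttcagcacagtCTACCTCa
IGF1R held 2 matches in 7088 bases and INSR 1 in 4801 bases, and the other 7 genes held 0. Long 3' UTRs often hold the motif: 33.0% of tested coding genes with a 3' UTR within 20% of the length of IGF1R's had at least 1 match, 24.6% for INSR, and 11.3% of all 13483 tested coding genes. A match describes the letters and does not show a working site. LIN28B, which blocks let-7 maturation, was at 97.9 ± 6.13 CPM in DSMZ and 0.0601 ± 0.0407 CPM in ATCC (SD, n = 3 each). Its part in the levels of IGF1R and INSR was not tested, and no small RNA was measured.

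FGFR1 (chromosome 8, 38400215 to 38468834, minus strand) went the other way. It had 15.6, 13.7 and 13.1 CPM in DSMZ and 70.7, 100.3 and 78.7 CPM in ATCC. The ATCC libraries all lay far above the DSMZ libraries, and ATCC replicate 2 was the highest. The log2 fold change was -2.56 (SE 0.16, adjusted p = 2.89e-05), a 5.90-fold difference, and 4.07% of tested genes had a larger absolute change. Full-length FGFR1 was at 3.01 ± 0.358 TPM in DSMZ and 16.3 ± 2.46 TPM in ATCC (SD, n = 3 each). Over all of its 41 listed transcripts it summed to 10.8 ± 0.500 TPM in DSMZ and 63.7 ± 7.40 TPM in ATCC. Part of the excess over the full-length value lay on short transcripts such as FGFR1-229, of 657 bases, with 15.3 ± 8.18% of the FGFR1 TPM in DSMZ and 25.9 ± 5.04% in ATCC. Short transcripts raise TPM out of proportion to their counts: full-length transcripts held 74.7 ± 6.01% of FGFR1 counts in DSMZ and 67.5 ± 1.76% in ATCC.

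Of the TAM receptors, MERTK (chromosome 2, 111898479 to 112029561, plus strand), which mediates engulfment of apoptotic cells by macrophages, had 3.12, 3.04 and 2.56 CPM in DSMZ and 1.34, 1.10 and 1.43 CPM in ATCC. The banks did not overlap, with a log2 fold change of 1.16 (SE 0.19, adjusted p = 1.59e-03). The counts were low, at 72 to 92 per library in DSMZ and 29 to 40 in ATCC. The call rests on counts: limma on log2(TPM + 0.5) gave 0.31 (adjusted p = 0.278). Full-length forms held 100, 100 and 87.9% of the MERTK counts in DSMZ and 25.2, 57.8 and 81.1% in ATCC. The rest in ATCC was assigned to other transcripts, among them the nonsense-mediated decay transcript MERTK-204 and MERTK-202, which has a shorter coding sequence. TYRO3 (chromosome 15, 41557675 to 41583586, plus strand) had 14.97, 13.3 and 15.3 CPM in DSMZ and 17.7, 21.4 and 21.9 CPM in ATCC. The banks came close without overlapping (log2 fold change -0.48, SE 0.12, adjusted p = 0.0140). The TYRO3 call was lost without ATCC replicate 3 (adjusted p = 0.0648) and without DSMZ replicate 2 (adjusted p = 0.0826). AXL (chromosome 19, 41219203 to 41261766, plus strand) had 14.4, 11.8 and 9.23 CPM in DSMZ and 9.29, 10.8 and 7.39 CPM in ATCC. The banks overlapped, and the difference did not pass (0.36, SE 0.20, adjusted p = 0.179). Without ATCC replicate 2, AXL passed (0.50, adjusted p = 0.0448) and the count of genes higher in DSMZ became 6, with 3 lower as before. Between TAM receptors, the log2 TPM ratio of TYRO3 to MERTK was 2.52 ± 0.282 in DSMZ and 3.91 ± 0.695 in ATCC, and that of AXL to MERTK 1.62 ± 0.226 in DSMZ and 1.87 ± 0.895 in ATCC (SD, n = 3 each; exact permutation p = 0.1 and 0.7). The AXL to MERTK ratio depended on the transcripts counted: with full-length forms it was 1.69 ± 0.157 in DSMZ and 3.56 ± 1.12 in ATCC (difference -1.86, exact permutation p = 0.1), in CPM the difference was -0.82, and over all transcripts it turned to 0.16 without ATCC replicate 2.

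The PDGF receptors moved in opposite directions from low levels. PDGFRB (chromosome 5, 150113837 to 150155872, minus strand) had 4.77, 3.33 and 4.09 CPM in DSMZ and 2.05, 2.38 and 1.64 CPM in ATCC. The banks did not overlap (log2 fold change 1.00, SE 0.21, adjusted p = 5.40e-03), but the call was lost with limma on log2(TPM + 0.5) (0.32, adjusted p = 0.447). PDGFRB lies 465 bases from CSF1R on the same strand. CSF1R, the macrophage CSF receptor, was at 120 ± 17.5 CPM in DSMZ and 78.9 ± 17.4 CPM in ATCC (SD, n = 3 each; 0.60, adjusted p = 0.0273). Whether reads of one reached the other was not tested. PDGFRA (chromosome 4, 54229097 to 54298247, plus strand) had 1, 2 and 1 counts in the DSMZ libraries and 15, 14 and 16 in the ATCC libraries. The ratio of ATCC to DSMZ was 12.3 with a 95% counting interval of 4.47 to 47.0, and the fitted log2 fold change was -3.44 (SE 0.39, adjusted p = 3.3e-04). Even in ATCC the level was 0.544 ± 0.0238 CPM (SD, n = 3), close to the lower end of what was tested.

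FLT1 (chromosome 13, 28300344 to 28495145, minus strand) had 0.911, 1.45 and 1.42 CPM in DSMZ and 0.388, 0.606 and 0.607 CPM in ATCC. The banks did not overlap at 21 to 51 counts per library in DSMZ and 11 to 17 in ATCC (log2 fold change 1.25, SE 0.29, adjusted p = 8.80e-03). Most of it was assigned to transcripts whose coding sequence is under 60% of the longest: these took 91.1, 83.5 and 96.2% of FLT1 counts in DSMZ and 88.2, 80.2 and 74.6% in ATCC. The leading one was FLT1-204, with a coding sequence of 2199 bases against 4014 for the full-length receptor. It held 59.1 ± 13.4% of FLT1 TPM in DSMZ and 81.6 ± 6.18% in ATCC (SD, n = 3 each). Full-length FLT1 was at 0.021 ± 0.017 TPM in DSMZ and 0.018 ± 0.009 TPM in ATCC.

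**Figure D2:**
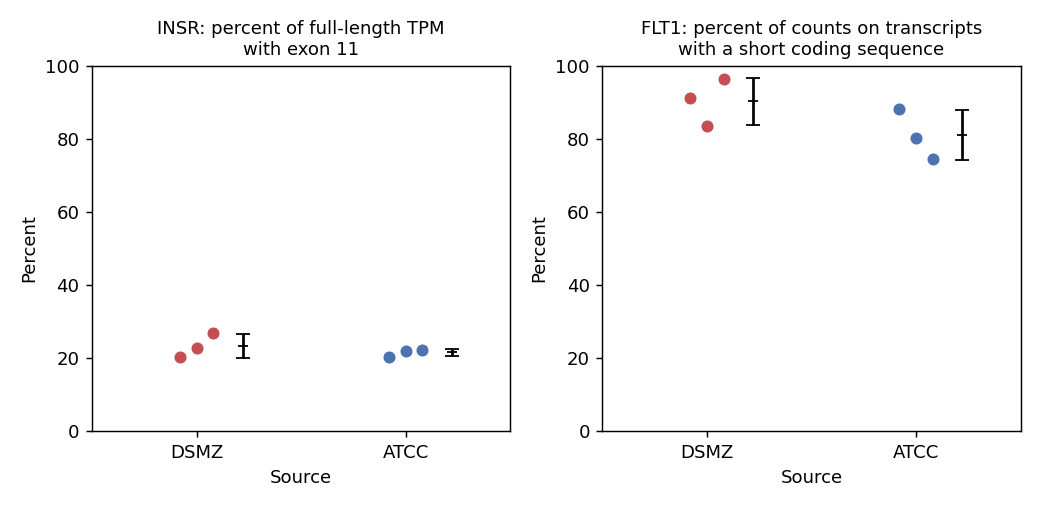
Transcript shares in percent for the 3 DSMZ libraries (left in each panel) and the 3 ATCC libraries (right), each point 1 library, with mean and SD beside them. INSR with exon 11 takes 20.3 to 26.9% in DSMZ and 20.4 to 22.3% in ATCC, and short-coding FLT1 transcripts 83.5 to 96.2% of counts in DSMZ and 74.6 to 88.2% in ATCC.

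The order of the genes by full-length TPM differed between the banks. In DSMZ it ran INSR, IGF1R, FGFR1, TYRO3, AXL, MERTK, PDGFRB, FLT1 and PDGFRA, where FGFR1, TYRO3 and AXL overlapped their neighbours, as did MERTK with PDGFRB and FLT1 with PDGFRA. In ATCC it ran INSR, FGFR1, TYRO3, AXL, PDGFRB, MERTK, IGF1R, PDGFRA and FLT1, where PDGFRB, MERTK and IGF1R overlapped. IGF1R thus stood second in DSMZ and seventh in ATCC. Over all transcripts FGFR1 was the first in ATCC, with INSR second. As shares of the summed full-length TPM of the 9 genes, INSR took 66.5 ± 1.296% in DSMZ and 48.7 ± 3.91% in ATCC, IGF1R 12.3 ± 0.988% in DSMZ and 0.494 ± 0.018% in ATCC, and FGFR1 5.98 ± 0.620% in DSMZ and 35.4 ± 3.62% in ATCC (SD, n = 3 each; exact two-sided permutation p = 0.1 for each). Over all transcripts the shares were 48.7 ± 2.47% in DSMZ and 25.4 ± 3.99% in ATCC for INSR, 22.2 ± 3.98% in DSMZ and 0.770 ± 0.510% in ATCC for IGF1R, and 13.8 ± 0.996% in DSMZ and 59.6 ± 2.73% in ATCC for FGFR1. Of the 14 shares, ratios and sums compared over all transcripts, 11 reached the smallest exact permutation p of 0.1, which is 0.127 after Benjamini-Hochberg adjustment.

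**Figure D3:**
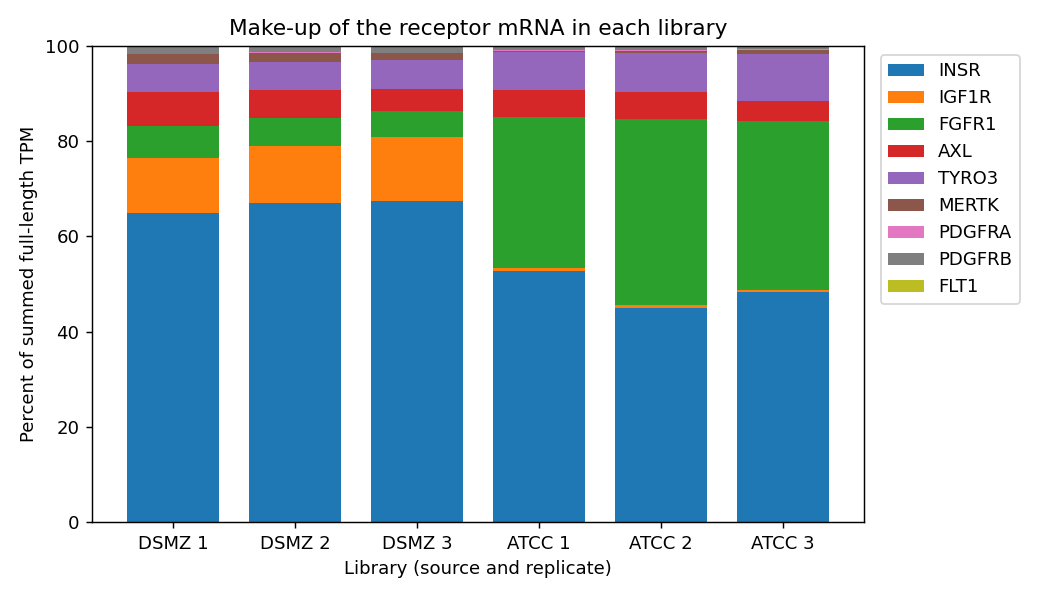
Percent of the summed full-length TPM of the 9 receptor genes in each library, DSMZ left and ATCC right. INSR is the largest share throughout, IGF1R takes 11.5 to 13.4% in DSMZ and 0.477 to 0.513% in ATCC, and FGFR1 5.38 to 6.61% in DSMZ and 31.8 to 39.0% in ATCC.

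To place each gene on its chromosome, it was set beside the tested genes within 2 Mb. Of all tested genes, 24.1% passed as higher in DSMZ and 25.7% as lower. Around IGF1R the 14 neighbours had a median log2 fold change of 0.08 and none was as high as IGF1R, and the nearest, ARRDC4 and SYNM, were lower in DSMZ (-0.95 and -0.51). Around PDGFRA the 14 neighbours had a median of 0.18 and none was as low, while the CSF group receptor KIT on one side was higher in DSMZ (0.70). FGFR1 lay among genes that were also lower in DSMZ: 17 of 23 neighbours were lower and 1 higher, with a median of -0.80, and LETM2 and TACC1 beside it were at -1.41 and -0.99. One neighbour was as low as FGFR1. LETM2 overlaps FGFR1 in the annotation, so reads shared between them would make both values uncertain, which was not tested. FLT1 lay among genes higher in DSMZ, 13 of 18 with a median of 0.65, and its neighbour PAN3 was at 1.23. Around MERTK 11 of 32 were higher and 3 lower, with a median of 0.37 and none as high as MERTK. Around AXL 25 of 75 were higher and 8 lower, with a median of 0.27. Around PDGFRB 11 of 35 were higher and 6 lower, around TYRO3 18 of 71 higher and 14 lower, and around INSR 15 of 79 higher and 21 lower, with medians of 0.06, 0.04 and -0.19. The part of the neighbourhood in these differences was not tested.

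**Figure D4:**
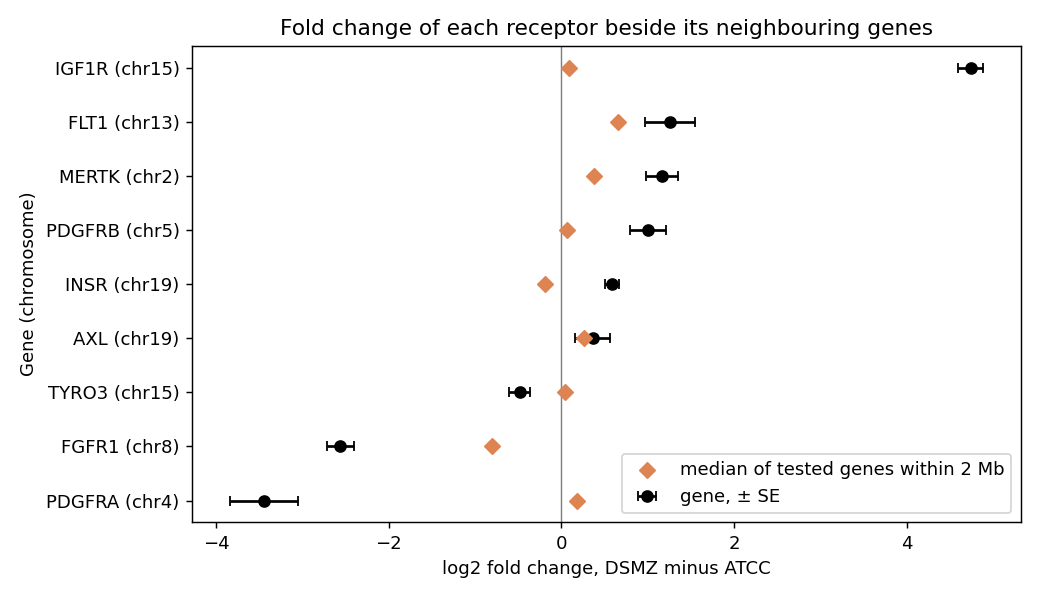
Log2 fold change (DSMZ minus ATCC) of each receptor gene with its standard error (circles), ordered from highest to lowest, beside the median of the tested genes within 2 Mb (diamonds). IGF1R at 4.74 and PDGFRA at -3.44 lie far from medians of 0.08 and 0.18, while the medians beside FGFR1 (-0.80) and FLT1 (0.65) lie on the same side as the gene.

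For 7 of the receptors, the genes nearest in profile were found by Euclidean distance of log2(CPM + 0.1) centred over the 6 libraries. They were RHPN2 and SNAP25 for IGF1R (0.30 and 0.35), and DUSP9 and BARX1 for FGFR1 (0.16 and 0.19). PLEKHO1 and PCED1B were nearest to AXL (0.15 and 0.17), and PLPP2 and TAF3 to MERTK (0.13 and 0.15). For TYRO3 they were RGS3 and C10orf143 (0.08 and 0.12), for FLT1 the metallothioneins MT2A and MT1F (0.14 and 0.26), and for PDGFRA PSEN2 and FBXO32 (0.24 and 0.25). With 2 banks, such likeness mostly restates the fold change after the offset of 0.1 CPM. PDGFRA was under that offset in DSMZ (0.0278 to 0.0708 CPM), which shrank its difference. Its fitted value of -3.44 thus stood beside -2.09 for PSEN2 and -2.26 for FBXO32.

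The ligands were read from fixed lists, to be set beside the 24.1% of all tested genes that passed as higher in DSMZ and the 25.7% as lower. All 4 tested TAM ligands were lower in DSMZ (1 of the 5 listed was not tested): GAS6 had 118 ± 2.55 CPM in DSMZ and 144 ± 14.9 CPM in ATCC (log2 fold change -0.29, adjusted p = 0.0450), PROS1, which encodes protein S, 35.6 ± 1.87 in DSMZ and 61.7 ± 15.3 in ATCC (-0.80), LGALS3 (galectin-3) was at -1.52 and TUB at -2.29 (SD, n = 3 each). The GAS6 call held in 6 of the 19 settings tried, and those of PROS1, LGALS3 and TUB in all 19. The median of the list was -1.16, against 0.01 over all tested genes. Of 3 tested PDGF ligands 1 passed: PDGFD, a ligand of PDGFRB, had 0.985 ± 0.0868 CPM in DSMZ and 17.7 ± 5.98 CPM in ATCC (-4.16, SE 0.30), opposite to its receptor. VEGF ligands and co-receptors had 2 of 5 tested higher in DSMZ, the FLT1 ligands VEGFA (0.37) and VEGFB (0.41), and 2 lower, VEGFC (-1.82) and the co-receptor NRP1 (-1.22). The calls of VEGFA and VEGFB held in 4 and 7 of the 19 settings. PGF, another FLT1 ligand, was at -0.24 and did not pass (adjusted p = 0.579). FGF ligands and co-receptors had 3 of 11 tested higher, FGF9 (4.67), FGFBP3 (2.04) and GPC1 (0.76), and 5 lower, FGF2 (-3.03), the syndecans SDC2 (-1.37), SDC3 (-1.29) and SDC1 (-0.88), and KL (-1.02). FGF9 had 27, 42 and 79 counts in DSMZ and 2, 3 and 0 in ATCC, so its fitted value is loose, from 1.47 to 8.12 over the settings. The SDC1 call held in 17 of the 19. FGF2, a main ligand of FGFR1, was at 0.761 ± 0.273 CPM in DSMZ and 6.15 ± 2.31 CPM in ATCC, the same direction as FGFR1. The median of that list was 0.23, although more of its calls were lower in DSMZ (5) than higher (3). Of 5 tested genes of the insulin and IGF list, 1 was higher and 2 lower. IGF2R, the scavenger receptor of IGF2, was at 674 ± 14.7 CPM in DSMZ and 451 ± 19.3 CPM in ATCC (0.58), and IGFBP7 was at -0.56, a call that held in 15 of the 19 settings. The other lower gene was IGFBP3, named although its mean was under 0.5 CPM. It had 0 counts in every DSMZ library and 15, 34 and 24 in the ATCC libraries, so its fitted value is not a measured fold. INS was at 0 counts throughout, and the limit that a count of 0 sets (3 counts over a bank, counting error only) was 0.0337 CPM in DSMZ and 0.0367 CPM in ATCC. IGF1 and IGF2 had at most 6 and 3 counts in a library and were not tested.

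Downstream of the receptors, 9 of 37 tested adaptors and proximal signalling genes were higher in DSMZ and 8 lower, with a median of -0.01, where 24.1% of all tested genes were higher and 25.7% lower. The 2 main insulin receptor substrates went apart: IRS2 had 306, 280 and 275 CPM in DSMZ and 77.4, 64.8 and 67.6 CPM in ATCC (2.04, SE 0.10, adjusted p = 1.40e-05), while IRS1, chosen after its values were seen, had 3.17, 3.40 and 2.67 CPM in DSMZ and 6.07, 5.79 and 6.03 CPM in ATCC (-0.96, SE 0.14, adjusted p = 1.19e-03). The catalytic subunit PIK3CA was higher (1.45) and the docking proteins DOK1 (-1.02) and DOK2 (-1.60) lower in DSMZ. PIK3CA was at 7.99 CPM in ATCC replicate 2 and at 22.5 and 17.3 in the other ATCC libraries. The IRS1 call held in 17 of the 19 settings. Of 26 tested negative regulators 7 were higher and 4 lower, with a median of 0.16. SOCS2, which dampens growth hormone and IGF signalling, had 97.5 ± 8.79 CPM in DSMZ and 1.28 ± 0.0870 CPM in ATCC (6.25, SE 0.14). The receptor phosphatase PTPRB was lower (-5.35) and LNX1 higher (1.12) in DSMZ, the LNX1 call in 14 of the 16 settings that tested it. Of 22 tested genes of the PI3K-AKT-FOXO list, 5 were higher and 4 lower, among them RICTOR (0.93), SESN3 (-2.55), EIF4EBP1 (-0.96) and FOXO4 (-0.91), with a median of 0.07. RICTOR had 54.2, 61.6 and 65.3 CPM in DSMZ and 44.5, 16.3 and 34.5 CPM in ATCC, lowest in ATCC replicate 2, and its call held in 15 of the 19 settings.

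**Figure D5:**
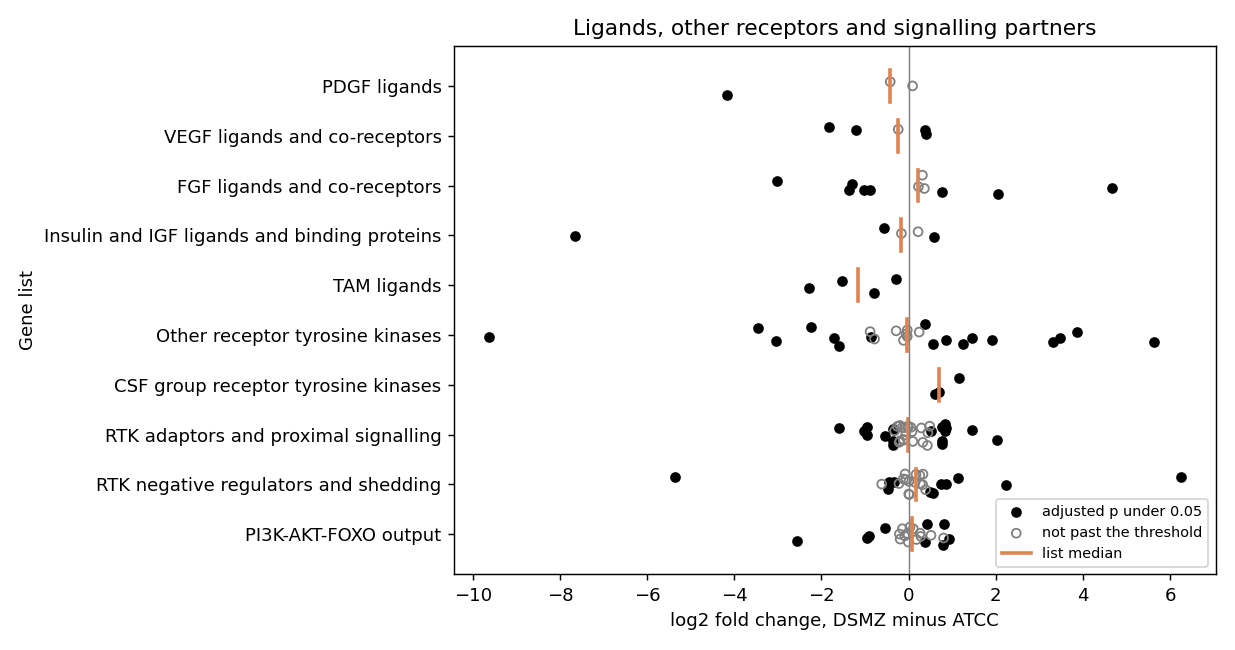
Log2 fold change (DSMZ minus ATCC) of each tested gene in the fixed lists of ligands, other receptors and signalling genes, filled where the adjusted p was under 0.05, with the list median as a bar. All 4 TAM ligands lie below 0, and the other receptor tyrosine kinases range to 5.63 on one side and -9.63 on the other (EPHB1, whose fitted value rests on 1 count in DSMZ and is not a measured fold).

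Among all 58 receptor tyrosine kinases listed, 37 were tested and 28 passed, where 49.8% of all tested genes passed. Of the 25 tested that are neither in the 9 nor in the CSF group, 10 were higher and 7 lower in DSMZ, with a median of -0.03. The ephrin receptor EPHA7 had 334 ± 17.0 CPM in DSMZ and 6.72 ± 2.99 CPM in ATCC (5.63), LTK was at 3.86, MST1R at 3.47 and PTK7 at 3.30. EPHB1 had 1 count in DSMZ and 1048 in ATCC (ATCC over DSMZ 1143, with a 95% counting interval of 205 to 45191), and MET (-3.45), ROS1 (-3.04) and LMTK3 (-2.23) were also lower in DSMZ. MET had 0, 6 and 2 counts in DSMZ, and its value ran from -4.80 to -3.02 over the 16 settings that tested it. MST1R had 4, 6 and 3 counts in ATCC and ran from 1.80 to 3.96 over the 19 settings. By TPM over all transcripts, IGF1R ranked 8 of these 58 in DSMZ and 24 in ATCC, and FGFR1 ranked 9 in DSMZ and 1 in ATCC. These ranks count short transcripts too: by full-length TPM in ATCC, INSR (22.3) stood above FGFR1 (16.3). The CSF group receptors KIT, FLT3 and CSF1R were all higher in DSMZ (0.70, 1.15 and 0.60), with calls that held in 17, 19 and 14 of the 19 settings.

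Markers of fibroblasts, pericytes and endothelial cells, in which some of these receptors are prominent, were low in sum beside those of monocytes. Over all tested genes, 24.1% passed as higher in DSMZ and 25.7% as lower. The 13 fibroblast and pericyte markers summed to 13.5 to 15.6 CPM in the DSMZ libraries and 38.7 to 39.7 CPM in the ATCC libraries. Of the 7 tested, 1 was higher in DSMZ, ACTA2 (0.81, a call that held in 15 of the 19 settings), and 4 were lower, including PDPN (-3.19), CSPG4 (-2.14) and RGS5 (-1.19). Of the other genes of that list, POSTN was at 0 in all libraries, and COL3A1 had 3 counts over the 6 libraries and LUM 1. COL1A1 had 11 to 17 per library in DSMZ and 12 to 16 in ATCC without passing. The 10 endothelial markers summed to 14.7 to 15.6 CPM in DSMZ and 14.6 to 21.9 CPM in ATCC, with CDH5 at 0. Of the 5 tested, 1 was higher in DSMZ, TIE1 (0.87 to 2.56 over the 19 settings), and 2 were lower. Among the lower was ROBO4, chosen after its values were seen (-6.97 to -4.79 over the 16 settings that tested it). The 12 monocyte markers summed to 1997 to 2145 CPM in DSMZ and 1466 to 2026 CPM in ATCC, with 4 higher and 5 lower, such as MPO (3.05), CD4 (0.78), CD14 (-2.01) and CD33 (-1.31). The 16 other genes of dying-cell clearance had 2 of 9 tested higher, MFGE8 (1.63, in 18 of the 19 settings) among them, and 4 lower, such as ITGB5 (-2.09), CD36 (-1.73) and CD300LB (-1.63).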

How the data were processed

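Per the submitters' processing notes, reads were handled with bcl2fastq 2.20, Trimmomatic 0.35 and kallisto 0.43.0 with genome build GRCh38. No source used here names the transcript release. The deposited tables give estimated counts, not normalized, and TPM per transcript, per the file headers, with transcript lengths. Counts and TPM were summed per gene symbol with GENCODE 29: 163714 of 179973 transcripts matched by identifier, 14387 by symbol and 1872 (0.178 to 0.196% of counts) had no gene. Summed estimated counts were rounded and tested in edgeR 4.0.16 (R 4.3.3; filterByExpr, TMM, quasi-likelihood F test, source as the only term). Each SE was derived from the F statistic and the fold change. The test was tried on simulated counts first. No pair of libraries of a bank was close to identical (smallest chi-square per degree of freedom 4.52).

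Named genes were the 9 receptors, up to 4 genes past the threshold per list (8 for ligands and other receptors) with a mean of at least 0.5 CPM, the nearest coding neighbours and the 2 nearest profiles. The members and lists were chosen with earlier results of these data known, and the full-length and let-7 measures after the values were seen. Some genes that this rule names are not reported here. Transcript shares were not tested. Alternatives were other normalizations and filters, DESeq2 1.42.0, limma 3.58.1, a GC correction, a replicate block, transcript subsets and leaving out each library. Figures used matplotlib 3.10.9.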

Additional observations from a re-analysis of the deposited data

How the results depend on the processing

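IGF1R, FGFR1 and INSR kept their direction and their call in all 19 settings, the reported one included, and PDGFRA (15 settings) and FLT1 (16) in each that tested them. With limma on log2(TPM + 0.5) and on log2(TPM + 0.1), 2 genes were higher in DSMZ in place of 5, over the 7 genes that passed its filter: MERTK was at 0.31 and 0.47 and PDGFRB at 0.32 and 0.40, past no threshold. AXL passed with the replicate block and GC correction together (0.38). Leaving out each library gave 0.19 to 0.52 for AXL, -0.60 to -0.44 for TYRO3, and 5 to 6 genes higher and 2 to 3 lower. Correlations of deviations were 0.02, 0.13 and 0.21 between same-numbered libraries of the 2 banks. Between libraries of unlike number they ran from -0.157 to 0.044. Whether the replicate numbers pair the libraries was not tested. The block alone left 5 genes higher and 3 lower, and gave 3472 higher and 3543 lower calls over all genes, in place of 3515 and 3747.

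Shares and sums depend on which transcripts are counted. The summed TPM of the 9 genes differed by -28.98 (DSMZ minus ATCC), but with protein-coding transcripts -19.2, in CPM 74.3 and with full-length transcripts 4.33, so no direction is given for it. As differences in percentage points, FGFR1 was at -26.1 in CPM and -29.4 full-length, IGF1R at 10.6 with protein-coding and 11.8 with full-length transcripts, INSR at 29.2, 10.1 and 17.8 (protein-coding, CPM, full-length), MERTK at 1.31 full-length, TYRO3 at -0.44 with protein-coding transcripts, AXL at 0.0639 in CPM, and FLT1 at 0.54, 0.168 and 0.00206 (protein-coding, CPM, full-length). The difference in log2 ratio was -1.86 for AXL to MERTK and -2.56 for TYRO3 to MERTK with full-length transcripts, and AXL to MERTK ranged over the left-out libraries from -0.73 to 0.16, the reversal being without ATCC replicate 2; the cause was not tested. Upper quartile scaling moved the share of calls higher in DSMZ to 42.4% from 48.4%. PDGFRA, FLT1 and MERTK rest on under 100 counts a library, and PDGFRB on 94 to 147 in DSMZ and 46 to 63 in ATCC.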

Other observations

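The genes of this paragraph were chosen after their values were seen. FGF23, the hormone that signals through FGFR1 with klotho, took 14673, 15548 and 31350 estimated counts in the DSMZ libraries and 12793, 15237 and 16093 in the ATCC libraries, far above every other FGF gene listed. Whether these counts are FGF23 mRNA or reads assigned to it by error was not tested, since alignments were not used here. It did not pass the test (log2 fold change 0.36, SE 0.18, edgeR adjusted p = 0.135), and its nearest tested gene, TIGAR, 13634 bases away, was at 6.22 CPM in DSMZ and 3.51 CPM in ATCC. Of the other FGF receptors, FGFR3 was higher in DSMZ, at 7.20 ± 0.239 CPM against 2.63 ± 0.409 CPM in ATCC (1.45), while FGFR4 was at 3.29 ± 0.745 CPM in DSMZ and 3.39 ± 0.428 CPM in ATCC (-0.03, edgeR adjusted p = 0.911).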
